A study of Rattus norvegicus with 4 samples.

Results

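Oxidative phosphorylation in the mitochondrial inner membrane is carried out by 5 protein complexes, and most of their subunits are encoded in the nucleus. The genes described here are the rows of the deposited tables that lie outside the mitochondrial chromosome and whose names mark subunits of complex I (Nduf genes), complex II (Sdha to Sdhd), complex III (Uqcr genes and Cyc1), complex IV (Cox4 to Cox8 genes) or complex V (Atp5 genes). The rule found 97 of 33778 rows, with 95 different names, and it also takes in the Ndufaf genes, which are assembly factors and not subunits. Ndufa4 and Ndufa4l2 were counted with complex IV, since NDUFA4 is known as a subunit of that complex, which gave 45 rows for complex I, 4 for complex II, 10 for complex III, 22 for complex IV and 16 for complex V. Expression was measured by RNA sequencing in H9C2, a cell line from embryonic rat heart, in 2 libraries of cells given PAGln (phenylacetylglutamine, a compound formed from glutamine and a gut bacterial product) at 100 µM for 48 h and in 2 control libraries without it. Cells of both groups grew in the same medium with serum, penicillin and streptomycin. All libraries come from this 1 line. Nothing in the labels tells separate cultures from repeat libraries of 1 culture, so a p-value here reflects library-to-library spread that may be technical.

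Complexes I and II pass electrons from NADH and succinate to ubiquinone, complex III passes them on to cytochrome c, and complex IV hands them to oxygen. Complexes I, III and IV pump protons as they do so, and complex V, the ATP synthase, uses the proton gradient to make ATP. The adult heart depends on this pathway for most of its ATP, and heart and skeletal muscle use their own isoforms of several complex IV subunits. The values are FPKM (fragments per kilobase of gene, scaled to the total of the library), which correspond to 13507110 and 13585802 reads in PAGln libraries, against 14934592 and 14984712 in control libraries. The cells are labelled as cardiac myocytes, and 4 of 17 cardiomyocyte markers (Casq2, Tnnt2, Nkx2-5 and Pln) reached a mean of 1 FPKM, while Myl3 had no read and Actc1, Myh6 and Ryr2 had means of 0.0113, 0.160 and 0.0112 FPKM. Of the skeletal myoblast markers, 5 of 7 reached that level, and Myf5 and Pax7 had no read. All 4 smooth muscle markers and 3 of 5 fibroblast markers (Col1a1, Thy1 and S100a4) reached it too. No endothelial or macrophage marker did, and of 4 epithelial markers only Krt8.

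Nuclear genes of the respiratory chain are known targets of NRF1, of GABPA, an ETS family factor, and of YY1, so their promoters were searched for short core motifs of these factors on both strands. A RefSeq promoter window (GRCr8, 250 bases before to 50 after the start) on the chromosome given in the tables was matched by symbol or synonym for 81 of 97 rows. The NRF1 core, searched as GCGC followed by any 2 bases and GCGC again, was in 15 of 81 of these windows (18.5%), against 14% of 8416 windows of other genes tested here and 5.58% of all 33469 windows. CCGGAAG, the ETS core, was in 23 of 81 (28.4%), against 19.5% of other tested genes and 8.75% of all windows. AAGATGGC, a core of YY1, was in 16 of 81 (19.8%), against 6.07% of other tested genes and 3.17% of all windows. The 81 windows include those of Cox6b2, Cox7a1, Cox8b, Cox8c and Ndufa4l2, which were below 1 FPKM on average and were not tested. Of these, the Ndufa4l2 window held the YY1 motif. At least 1 of the 3 motifs was in 45 of 81 windows of these genes (55.6%), against 34.3% of windows of other tested genes. These are matches of letters and not shown binding sites, and other tested genes had a higher median GC content (56.0% in these genes and 61.3% in other tested genes). For each complex the window with the most motif kinds, and among equals that of the gene with the highest level, is shown from 5′ to 3′ on the gene's strand, because together they hold each motif at least once. Capitals mark the motifs, on either strand.
Ndufa6 (complex I, GRCr8 chr7:115750268-115750567, minus strand): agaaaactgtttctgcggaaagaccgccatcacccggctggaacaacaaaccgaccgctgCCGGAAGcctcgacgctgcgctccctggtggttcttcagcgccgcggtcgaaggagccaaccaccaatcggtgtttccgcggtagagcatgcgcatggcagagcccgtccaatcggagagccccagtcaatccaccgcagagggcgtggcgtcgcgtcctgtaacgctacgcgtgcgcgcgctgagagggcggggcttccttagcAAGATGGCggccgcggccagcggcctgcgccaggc
Sdhc (complex II, GRCr8 chr13:86097976-86098275, minus strand): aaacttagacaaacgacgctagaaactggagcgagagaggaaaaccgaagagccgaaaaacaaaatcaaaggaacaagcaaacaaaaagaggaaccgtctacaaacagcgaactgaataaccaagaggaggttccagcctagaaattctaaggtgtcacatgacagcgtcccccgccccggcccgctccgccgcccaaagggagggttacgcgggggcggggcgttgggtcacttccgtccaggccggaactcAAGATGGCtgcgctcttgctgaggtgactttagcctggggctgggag
Uqcrc1 (complex III, GRCr8 chr8:118467973-118468272, plus strand): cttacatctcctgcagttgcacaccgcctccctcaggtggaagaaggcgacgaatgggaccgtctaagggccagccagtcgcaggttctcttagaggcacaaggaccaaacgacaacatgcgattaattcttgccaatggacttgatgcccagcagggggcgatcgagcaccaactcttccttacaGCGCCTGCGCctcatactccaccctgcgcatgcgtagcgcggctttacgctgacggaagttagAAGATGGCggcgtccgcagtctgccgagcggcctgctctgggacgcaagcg
Cox8a (complex IV, GRCr8 chr1:213833574-213833873, minus strand): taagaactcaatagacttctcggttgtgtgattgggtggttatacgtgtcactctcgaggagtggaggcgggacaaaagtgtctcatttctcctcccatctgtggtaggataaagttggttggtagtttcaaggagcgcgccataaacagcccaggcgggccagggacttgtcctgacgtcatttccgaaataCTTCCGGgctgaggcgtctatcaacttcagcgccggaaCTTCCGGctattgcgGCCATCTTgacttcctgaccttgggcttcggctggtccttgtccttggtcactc
Atp5me (complex V, GRCr8 chr14:1464610-1464909, plus strand): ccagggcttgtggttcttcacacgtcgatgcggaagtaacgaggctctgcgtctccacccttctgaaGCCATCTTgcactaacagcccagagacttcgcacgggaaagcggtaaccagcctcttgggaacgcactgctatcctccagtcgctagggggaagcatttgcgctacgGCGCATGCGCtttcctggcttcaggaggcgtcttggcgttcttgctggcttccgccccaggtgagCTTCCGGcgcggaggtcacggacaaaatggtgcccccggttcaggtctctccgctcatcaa
Of these 5, only the Atp5me window held all 3 motifs, and Cox8a held the ETS motif at more than 1 place. In Ndufa6, Sdhc, Uqcrc1 and Cox8a the YY1 motif lies close to the start, toward the right end of the printed window. The letters of this motif hold ATG, and whether a match lies at a start codon of translation was not tested. The match in Atp5me, whose middle bases are AT, is also the exact NRF1 palindrome with AT between the GCGC blocks, a case of the wider motif that 6 of 81 windows of these genes held (7.41%), against 2.02% of windows of other tested genes and 0.852% of all windows.

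Of the 97 rows, 88 had a mean of at least 1 FPKM over the 4 libraries. In complex I the catalytic core, which holds the flavin and iron-sulfur clusters, had gene means between 35.5 and 91.1 FPKM. Ndufs8, an iron-sulfur subunit, was the highest of these with 102 and 74.3 FPKM in PAGln libraries, against 82.3 and 106 FPKM in control libraries. Ndufv1, the flavin subunit that takes electrons from NADH, had 57.1 and 44.9 FPKM with PAGln and 48.1 and 66.9 FPKM in control. Both were highest in control 2 and lowest in PAGln 2, so the 2 groups overlapped. Ndufs1, the large iron-sulfur subunit, had 38.6 and 43.3 FPKM with PAGln and 40.6 and 38.4 FPKM in control, here with PAGln 2 highest. Of the other core subunits, Ndufs3, Ndufs7 and Ndufv2 had means of 35.5, 55.0 and 54.7 FPKM. The 28 tested accessory subunits spread more widely, with means of 15 to 159.9 FPKM. The most abundant were Ndufb4, with 145 and 165 FPKM with PAGln and 151 and 179 FPKM in control, and Ndufb8, with 148 and 108 FPKM with PAGln and 119 and 175 FPKM in control. Assembly factors, which build the complex and do not stay in it, were lower, at 2.30 to 16.6 FPKM over the 8 Ndufaf genes, with Ndufaf6 lowest and Ndufaf8 highest. The means of core subunits and assembly factors did not overlap.

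The 4 subunits of complex II, which is also an enzyme of the citric acid cycle, had means of 43.8 to 85.4 FPKM. Sdhc, a membrane anchor, had 82.1 and 83.1 FPKM in PAGln libraries, against 83.3 and 93.1 FPKM in control libraries. Sdhb, the iron-sulfur subunit, had 79.3 and 72.4 FPKM with PAGln and 66.5 and 81.1 FPKM in control. Sdha, the flavoprotein, and Sdhd, the other anchor, were about equal, with means of 44.6 and 43.8 FPKM that differ by less than the spread between libraries. In complex III, Cyc1 (cytochrome c1) had 63.1 and 57.2 FPKM with PAGln and 62.0 and 76.9 FPKM in control, and Uqcrfs1, the Rieske iron-sulfur protein, had 84.4 and 86.5 FPKM with PAGln and 79.4 and 94.0 FPKM in control. The core proteins Uqcrc2 and Uqcrc1 had means of 92.3 and 67.6 FPKM. The most abundant complex III gene was the small subunit Uqcr11, with 128 and 86.8 FPKM in PAGln libraries, against 110.2 and 168 FPKM in control libraries. Its libraries differed more within each group than the group means did from each other.

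In complex IV the widely expressed isoforms were abundant and most of the tissue isoforms were near 0. Cox4i1 had 436 and 326 FPKM in PAGln libraries, against 352 and 451 FPKM in control libraries, while Cox4i2, an isoform known from lung and from cells short of oxygen, had 2 reads in PAGln 2 and none in the other libraries. Cox6a1 had 386 and 298 FPKM with PAGln and 324 and 469.7 FPKM in control, and Cox6a2, the isoform of heart and skeletal muscle, had 6.52 and 6.78 FPKM with PAGln and 6.22 and 5.58 FPKM in control. The muscle isoform was thus present at a low level, with both PAGln libraries above both control libraries by less than the test could call (log2 fold change 0.15, SE 0.14). Of the other muscle isoforms, Cox7a1 had 1 read in each library and Cox8b had 2 reads in PAGln 1 and none elsewhere. Of their widely expressed counterparts, Cox7a2 had a mean of 99.5 FPKM and Cox8a had 365 and 278 FPKM in PAGln libraries, against 318 and 532 FPKM in control libraries. Cox6b2 and Cox8c, known from testis, had no read in any library. Cox7b2, also known from testis, had 1.23 and 1.83 FPKM with PAGln and 2.24 and 1.66 FPKM in control, beside a mean of 139 FPKM for Cox7b. Those Cox7b2 values rest on 4 and 6 reads with PAGln and 8 and 6 in control. Ndufa4 had 139 and 137 FPKM with PAGln and 121 and 136 FPKM in control, and its relative Ndufa4l2, induced under low oxygen in other cells, had 2 and 3 reads with PAGln and 2 and 1 in control. Cox5a and Cox5b, which are nuclear subunits on the matrix side of the complex, had means of 146 and 80.2 FPKM. Cox7a2l, which helps complexes III and IV to join into supercomplexes, had 133 and 117 FPKM with PAGln and 119 and 153 FPKM in control.

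Complex V held the most abundant gene of all 97 rows. Atp5f1b, the catalytic beta subunit of the F1 head, had 664 and 612 FPKM in PAGln libraries, against 597 and 695 FPKM in control libraries. Atp5f1a, the alpha subunit, had 247.1 and 235 FPKM with PAGln and 237 and 254 FPKM in control, so beta was above alpha in every library, although the head holds equal numbers of both. The central stalk subunits Atp5f1d and Atp5f1e had means of 85.4 and 117 FPKM, and Atp5f1c was not analysed here. The c ring, which turns as protons pass, is encoded by 3 genes for the same mature protein. Atp5mc2 had 270.0 and 225 FPKM with PAGln and 237 and 288 FPKM in control. Atp5mc3 had 204 and 189 FPKM with PAGln and 189 and 207 FPKM in control, and Atp5mc1 had 106 and 96.5 FPKM with PAGln and 98.6 and 123 FPKM in control. This order of the 3 genes was the same in each library. Atp5md, a small membrane subunit also called DAPIT, had 387 and 371 FPKM with PAGln and 363 and 381 FPKM in control. Of the peripheral stalk, Atp5pd, Atp5pf and Atp5po had means of 124, 64.3 and 128 FPKM, and Atp5pb is described with its second locus further on. Atp5if1, which inhibits the enzyme when it runs backwards, had 88.0 and 60.2 FPKM with PAGln and 73.5 and 99.4 FPKM in control. It was highest in control 2 and lowest in PAGln 2.

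**Figure D1:**
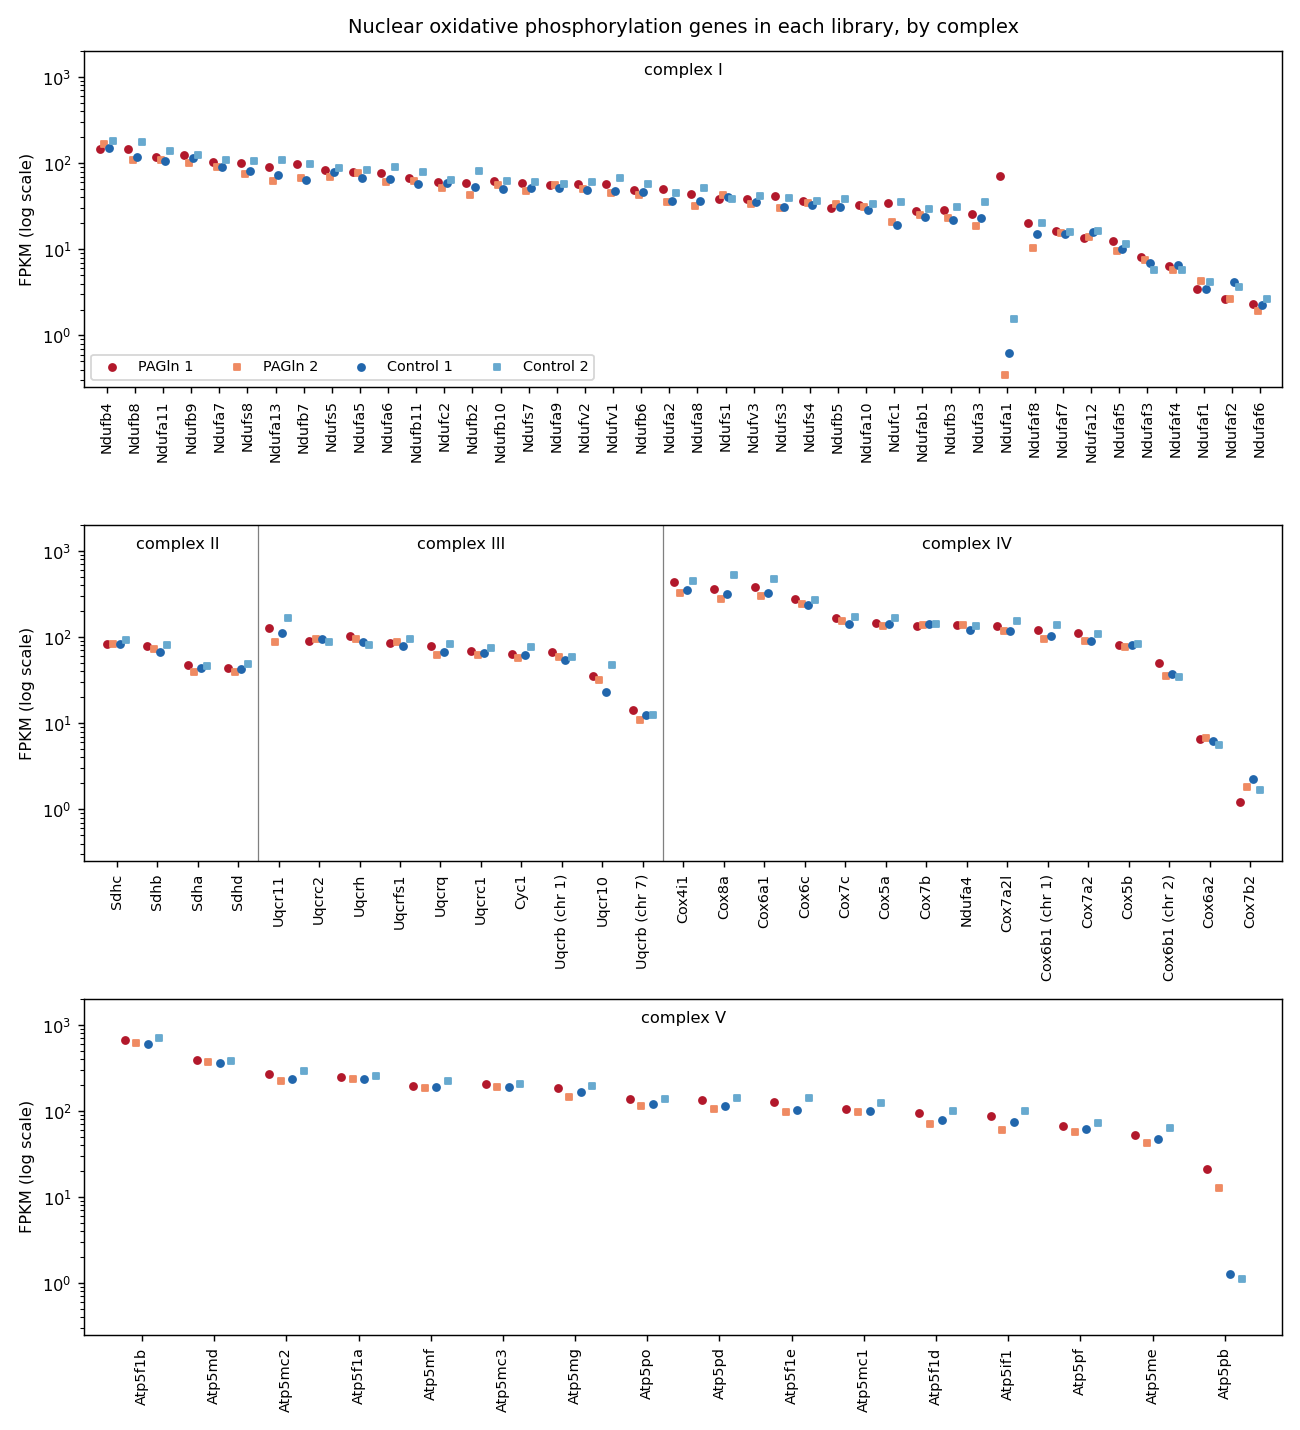
Levels of 87 of the 88 tested genes in FPKM on a log scale, by complex and ordered by mean, with 1 point per library (PAGln 1, PAGln 2, control 1 and control 2 from left to right at each gene). Most genes have the PAGln 1 and control 2 points above the other 2, and Ndufa1 and Atp5pb are the genes with the widest spread between libraries.

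The 9 rows under the filter were the isoforms Cox4i2, Cox6b2, Cox7a1, Cox8b, Cox8c and Ndufa4l2, the pseudogene row Cox6c-ps1, Ndufa10l1, and a row named Ndufs6 that the tables list as a processed pseudogene. 5 of them (Cox6b2, Cox8c, Cox6c-ps1, Ndufa10l1 and Ndufs6) had no read in any library. Together the 97 rows took 0.744% and 0.651% of all reads in PAGln libraries, against 0.657% and 0.797% in control libraries. The groups overlapped in this share, with PAGln 1 and control 2 high and PAGln 2 and control 1 low.

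The comparison of PAGln with control asks whether the metabolite changed the level of these genes within 48 h. None of the 88 tested genes passed the threshold of 0.05 (limma on log2(FPKM + 1), p adjusted by Benjamini-Hochberg over all 12334 tested genes, of which 0% passed). At an unadjusted p under 0.05 there was 1, Atp5pb, against 2.12% of all tested genes. Limma's voom on the recovered reads also gave 0 after adjustment and 1 at an unadjusted p under 0.05, against 1.09% of all tested genes. The median log2 fold change was -0.080 over the 88 genes, against 0.0021 over all tested genes. The estimate was below 0 for 59 of 88 genes (67%, against 49.4% of all tested genes) and above 0 for 29, against 50.6%. By complex, 27 of 43 estimates were below 0 in complex I, 3 of 4 in complex II, 6 of 10 in complex III, 9 of 15 in complex IV and 14 of 16 in complex V, with medians of -0.081, -0.076, -0.014, -0.042 and -0.095. The groups did not overlap in 9 genes (10.2%), against 23.1% of all tested genes. PAGln was the higher side in 5 of them (Atp5pb, Uqcrh, Ndufaf3, Cox6a2 and Ndufa4; 11.5% of all tested genes) and the lower side in 4 (Ndufaf2, Ndufa12, Sdhc and Cox7b; 11.6%). The direction of the median rested on single libraries. It was 0.042 without PAGln 2 and 0.057 without control 2, and -0.18 without PAGln 1 and -0.20 without control 1. Atp5f1b had a log2 fold change of -0.014 (SE 0.13, 95% interval -0.36 to 0.33) and Cox4i1 one of -0.080 (SE 0.20, 95% interval -0.59 to 0.43), while those of Atp5md, Ndufb4, Ndufb8, Sdhc, Sdhb and Uqcrc2 were 0.025, -0.086, -0.19, -0.091, 0.045 and 0.015. Cox8a with -0.37 (SE 0.28, 95% interval -1.08 to 0.34) and Uqcr11 with -0.37 (SE 0.27, 95% interval -1.06 to 0.32) were farther below 0. At the median of the 88 genes an unadjusted 95% interval reached 0.37 to either side of the estimate, so smaller log2 changes were not detectable gene by gene. Larger changes could be missed as well, since calls used the adjusted p, which Atp5pb did not pass with a log2 fold change of 3.0. Reads of Atp5pb are divided with a second locus, described further on. Summed over both loci the groups overlapped, so Atp5pb need not be a missed change of the gene. In bulk RNA, fewer cells and less RNA per cell cannot be told apart.

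Of the 5 genes with the smallest p in each direction, none passed, and 1 (Cyc1) was a catalytic subunit. Ndufaf2, an assembly factor, had 2.63 and 2.61 FPKM in PAGln libraries, against 4.16 and 3.61 FPKM in control libraries, with both PAGln libraries below both controls. Its log2 fold change came to -0.43 (SE 0.17, 95% interval -0.86 to 0.0023), limma adjusted p = 1.00. Ndufa12, its paralog and a subunit of the complex, had 13.7 and 13.9 FPKM with PAGln and 16 and 16.3 FPKM in control, a log2 fold change of -0.21 (SE 0.11, 95% interval -0.49 to 0.059). Here too the groups did not overlap. Ndufb2, an accessory subunit, had 58.4 and 42.2 FPKM with PAGln and 52.6 and 81.1 FPKM in control, a log2 fold change of -0.39 (SE 0.26, 95% interval -1.04 to 0.26). Ndufa3, another accessory subunit, had 25.9 and 18.8 FPKM with PAGln and 22.9 and 35.5 FPKM in control, a log2 fold change of -0.35 (SE 0.26, 95% interval -1.0 to 0.30). That of Cyc1 was -0.20 (SE 0.14, 95% interval -0.55 to 0.16). In these 3 genes control 2 was highest and PAGln 2 lowest, and PAGln 1 lay above control 1. On the higher side after Atp5pb, Uqcrh, the hinge protein of complex III, had 103 and 94.1 FPKM in PAGln libraries, against 86.9 and 79.9 FPKM in control libraries, a log2 fold change of 0.24 (SE 0.11, 95% interval -0.038 to 0.51) with no overlap between groups. Ndufaf3, an assembly factor, had 8.15 and 7.55 FPKM with PAGln and 6.93 and 5.71 FPKM in control, a log2 fold change of 0.28 (SE 0.15, 95% interval -0.10 to 0.66), also without overlap. Ndufa1 and the chromosome 1 row of Uqcrb complete the 5 on that side and are described with their second loci. Uqcrh and Ndufaf3 were highest in PAGln 1 and lowest in control 2, which most other genes of the group were not.

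**Figure D2:**
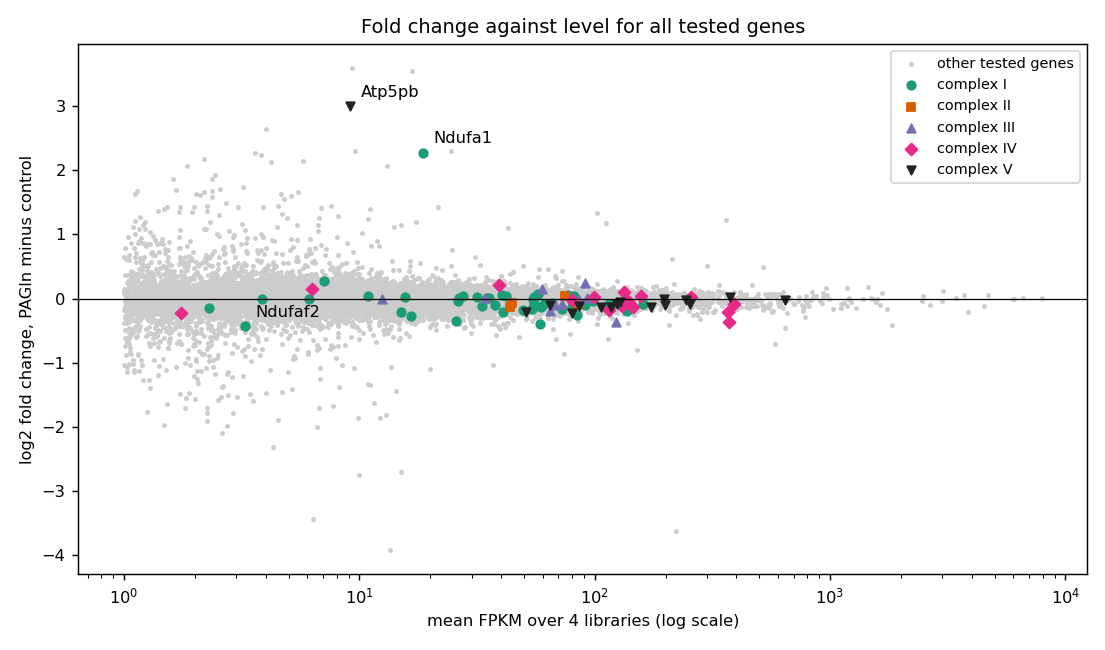
log2 fold change (PAGln minus control, on log2(FPKM + 1)) against the mean FPKM over 4 libraries on a log scale, with the 88 genes coloured by complex over the other tested genes in grey. All but Atp5pb and Ndufa1 lie between -0.43 and 0.28.

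The libraries differed in these genes in a way that crossed the groups. Each gene's log2(FPKM + 1) was set against its own mean over the 4 libraries, and the median of these differences over the 88 genes was 0.074 in PAGln 1, -0.14 in PAGln 2, -0.10 in control 1 and 0.15 in control 2. Over all tested genes the same medians were 0.0038 in PAGln 1, -0.00016 in PAGln 2, 0.0017 in control 1 and 0.0016 in control 2. The highest value of a gene was in control 2 for 63 of 88 genes and in PAGln 1 for 18, and in PAGln 2 or control 1 for 3 and 4. Over all tested genes 21.5% had it in PAGln 1, 28.3% in PAGln 2, 20% in control 1 and 30.1% in control 2. The lowest value was in PAGln 2 for 50 genes and in control 1 for 23, and in PAGln 1 or control 2 for 7 and 8. Over all tested genes 19.9% had it in PAGln 1, 29.7% in PAGln 2, 20.1% in control 1 and 30.3% in control 2. The medians of PAGln 1 and control 2 were above 0, and those of PAGln 2 and control 1 below 0, in each complex. In complex V, 14 of 16 genes were highest in control 2, and 13 were lowest in PAGln 2. In complex I the counts were 31 and 23 of 43. The difference within a group was larger than that between the groups. At the median, PAGln 1 lay 0.18 above PAGln 2 and the difference of control 1 minus control 2 was -0.24, while the median log2 fold change was -0.080. The summed level of the 7 skeletal myoblast markers had a like order, with 358 and 292 FPKM in PAGln libraries, against 296 and 359 FPKM in control libraries. Itga7, Cdh15, Myod1 and Des each had PAGln 1 and control 2 above PAGln 2 and control 1. Myog did not, with 1.02 and 1.47 FPKM with PAGln and 1.02 and 1.83 FPKM in control. Cardiomyocyte markers summed to 476 and 379 FPKM in PAGln libraries, against 379 and 422 FPKM in control libraries, with PAGln 1 and control 2 higher. Casq2, the highest of them, had 268 and 219 FPKM with PAGln and 236 and 230 FPKM in control, with control 1 above control 2. Tnnt2, Nkx2-5 and Pln had PAGln 1 and control 2 above PAGln 2 and control 1. Smooth muscle markers summed to 5294 and 4031 FPKM in PAGln libraries, against 5179 and 5209 FPKM in control libraries, with PAGln 2 lowest. Acta2, the highest of them, had 3986 and 3161 FPKM with PAGln and 4147 and 4077 FPKM in control. Tagln had 1207 and 796 FPKM with PAGln and 939 and 1036 FPKM in control. Tagln, Cnn1 and Myh11 each had PAGln 1 and control 2 above PAGln 2 and control 1. Epithelial markers summed to 29.7 and 26.2 FPKM in PAGln libraries, against 30.0 and 34.1 FPKM in control libraries, also with PAGln 2 lowest. Fibroblast markers summed to 3451 and 3534 FPKM in PAGln libraries, against 3547 and 3690.2 FPKM in control libraries, with PAGln 1 lowest. Col1a1, far the highest of them, had 2848 and 3036 FPKM with PAGln and 3009 and 3014 FPKM in control. Thy1 had 370 and 300 FPKM with PAGln and 337 and 386 FPKM in control. S100a4 had 234 and 198 FPKM with PAGln and 201 and 290 FPKM in control. Thy1 and S100a4 thus had PAGln 1 and control 2 above PAGln 2 and control 1. The part of these markers in the result was not tested.

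**Figure D3:**
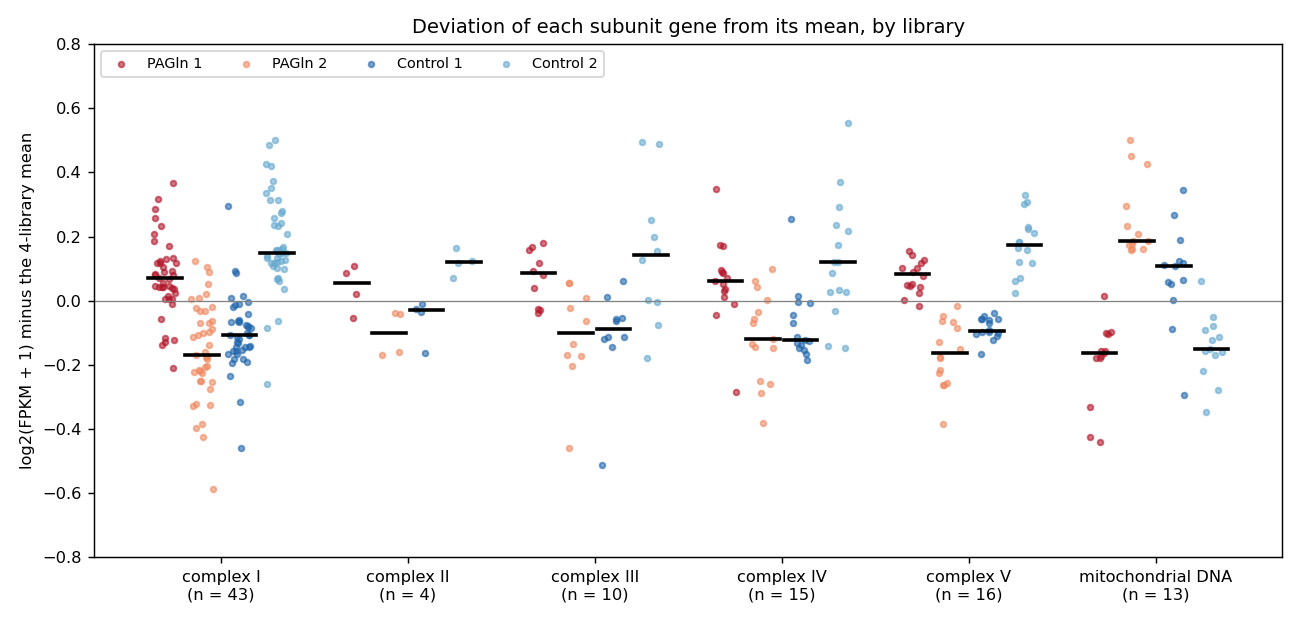
Difference of each gene's log2(FPKM + 1) from its mean over the 4 libraries, by complex and for the 13 subunits encoded by mitochondrial DNA, with 1 point per gene and black lines at the medians. In each complex PAGln 1 and control 2 have medians above 0, and the subunits of mitochondrial DNA have PAGln 2 and control 1 above 0. The 8 values of Ndufa1 and Atp5pb lie outside the axis, which ends at 0.8 either way.

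Gene length moved with this pattern. The 88 genes are short, with a median length of 718.5 bases in the tables, against 2177 over all tested genes. Among genes of 501 to 800 bases, the medians in PAGln 1, PAGln 2, control 1 and control 2 were 0.090, -0.21, -0.12 and 0.22 for the 25 genes of oxidative phosphorylation, and 0.055, -0.10, -0.081 and 0.13 for the 445 other protein-coding genes. Among those of 1201 to 2000 bases they were 0.041, -0.066, -0.079 and 0.12 for 15 genes and 0.031, -0.052, -0.037 and 0.061 for 2638 others. In these 2 classes the signs were the same in both sets, and the sizes were larger in the oxidative phosphorylation genes. Among genes of 2001 to 4000 bases the medians were 0.071, -0.064, -0.060 and 0.035 for 7 oxidative phosphorylation genes and 0.0023, 0.0022, 0.0032 and -0.0020 for 4253 others, so there 3 of the 4 signs differed and the other genes lay close to 0. Protein-coding genes over 4000 bases, of which none belongs to the set, had the opposite signs (-0.042, 0.081, 0.063 and -0.099, n = 2215). With a correction for gene length in each library, chosen after seeing the data, the medians of the 88 genes were 0.035, -0.085, -0.053 and 0.070, smaller than before and of the same signs. The part of gene length in the order of libraries was not tested beyond this.

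**Figure D4:**
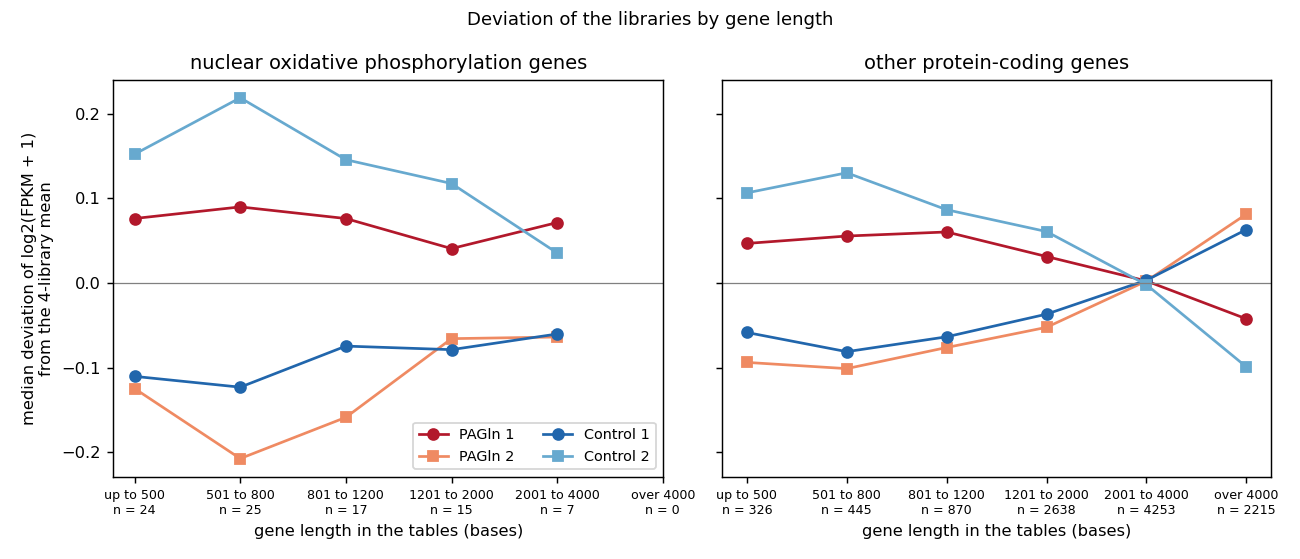
Median difference of log2(FPKM + 1) from the 4-library mean by class of gene length in bases, for the 88 oxidative phosphorylation genes on the left and the other tested protein-coding genes on the right, with 1 line per library and n in each class. Up to 2000 bases PAGln 1 and control 2 lie above 0 in both sets, and over 4000 bases the order on the right is turned round. The class of 2001 to 4000 bases on the left holds 7 genes.

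The 13 protein-coding genes of the mitochondrial genome, which encode the remaining subunits of complexes I, III, IV and V, showed the other order of libraries. Their medians were -0.16 in PAGln 1, 0.19 in PAGln 2, 0.11 in control 1 and -0.15 in control 2, and all 13 were highest in PAGln 2. COX1, the catalytic subunit of complex IV, had 7077 and 8809.7 FPKM in PAGln libraries, against 8559 and 7241 FPKM in control libraries. CYTB, the cytochrome b of complex III, had 3239 and 4300.4 FPKM with PAGln and 3945 and 3276 FPKM in control, and ND5, a proton-pumping subunit of complex I, had 857 and 1591 FPKM with PAGln and 1399.7 and 958 FPKM in control. In each the PAGln libraries lay on both sides of the controls. These 13 genes took 3.32% and 4.36% of reads in PAGln libraries, against 4.04% and 3.46% in control libraries, so their share was low where that of the nuclear genes was high. Their median length is 784 bases, close to that of the nuclear genes, and the length correction left medians of -0.21, 0.26, 0.16 and -0.23. None passed the threshold, and ND4 (log2 fold change 0.51, SE 0.18) had an unadjusted p under 0.05 in limma, against 2.12% of all tested genes. Control 1 lay above the gene's mean in 11 of 13 genes, and ND4 was not among them. Its differences were 0.015 in PAGln 1, 0.50 in PAGln 2, -0.29 in control 1 and -0.22 in control 2. A nuclear locus described by its match to the ND4 protein moved the other way and is given at the end. In bulk RNA a smaller share of one kind of RNA cannot be told apart from a larger share of another.

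Atp5pb encodes the b subunit of the peripheral stalk, which holds the F1 head still while the rotor turns, and it had the largest fold change of the group. It had 21.2 and 12.8 FPKM in PAGln libraries, against 1.27 and 1.12 FPKM in control libraries, a log2 fold change of 3.0 (SE 0.26, 95% interval 2.35 to 3.65) with limma adjusted p = 0.266. In the tables' own coordinates it lies on chromosome 2 from 208566385 to 208577146. A second locus described as a like protein, LOC100911417, lies on the same chromosome from 208408890 to 208420163, and both are listed with a length of 2063 bases. Atp5pb had 594 and 362 reads in PAGln libraries, against 39 and 35 in control libraries. LOC100911417 had 279 and 18 reads in PAGln libraries, against 426 and 463 in control libraries. The low libraries of one locus were thus the high ones of the other, except in PAGln 1, where both had reads. The share of the reads of both loci that was given to Atp5pb was 68.0% and 95.3% in PAGln libraries, against 8.39% and 7.03% in control libraries. Summed over both loci, the level was 64.6 and 28.0 CPM (reads scaled to the library total) in PAGln libraries, against 31.1 and 33.2 CPM in control libraries. On the sum PAGln 1 was highest and PAGln 2 lowest, so the groups overlapped. Atp5pb passed the threshold without PAGln 2 (limma adjusted p = 0.0116) and did not pass without PAGln 1 (limma adjusted p = 0.0514). In both fits the lone PAGln library is assumed to vary like the controls. The sequences of the loci were not compared here, and how the counting divided reads between them was not tested.

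Ndufa1, a small subunit in the membrane arm of complex I, also had its reads at one locus or the other, but the split did not follow the groups. On chromosome X (124513269 to 124516705) it had 207 and 1 reads in PAGln libraries, against 2 and 5 in control libraries. LOC108348144, described as the same protein and also on chromosome X (123803103 to 123806777), had 2 and 176 reads in PAGln libraries, against 162 and 7 in control libraries. The share at Ndufa1 was 99.0% and 0.565% in PAGln libraries, against 1.22% and 41.7% in control libraries. Summed over both loci there were 209 and 177 reads in PAGln libraries, against 164 and 12 in control libraries, so control 2 was low at both. The log2 fold change of Ndufa1 was 2.28 (SE 1.81, 95% interval -2.33 to 6.88), the widest interval of the group. Ndufa1 passed without PAGln 2 (limma adjusted p = 0.0106), with the same assumption, and its log2 fold change was -0.60 without PAGln 1.

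Other genes with a second locus kept a steadier split. Cox6b1, whose protein sits where the monomers of a complex IV dimer meet, is listed on chromosomes 1 and 2, with 84.9% and 86.1% of the reads at the chromosome 1 row in PAGln libraries, against 86.7% and 90.2% in control libraries. Uqcrb, a small subunit of complex III, is listed on chromosomes 1 and 7. Its chromosome 1 row had 66.8 and 58.4 FPKM in PAGln libraries, against 53.6 and 59.2 FPKM in control libraries, a log2 fold change of 0.15 (SE 0.12, 95% interval -0.16 to 0.45). Its chromosome 7 row had 14.1 and 11 FPKM with PAGln and 12.6 and 12.5 FPKM in control. The chromosome 1 row took 68.7% and 71.1% of the reads in PAGln libraries, against 66.3% and 68.6% in control libraries. The tables give 475 bases for a chromosome 1 row that spans as many on the genome, and 1029 for the chromosome 7 row. Cox5a took 88.7% and 86.3% of the reads summed with the pseudogene LOC100361008 in PAGln libraries, against 88.8% and 89.3% in control libraries. Ndufb4, Ndufv3, Ndufa12 and Ndufa3 also have a second locus, and at least 78.0% of the summed reads lay at the gene itself in each library. For Ndufs6, whose own row had no read, LOC679739 had 3 and 7 reads with PAGln and 26 and 4 in control, and LOC100912599 had 2 and 4 with PAGln and 5 and 3 in control.

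**Figure D5:**
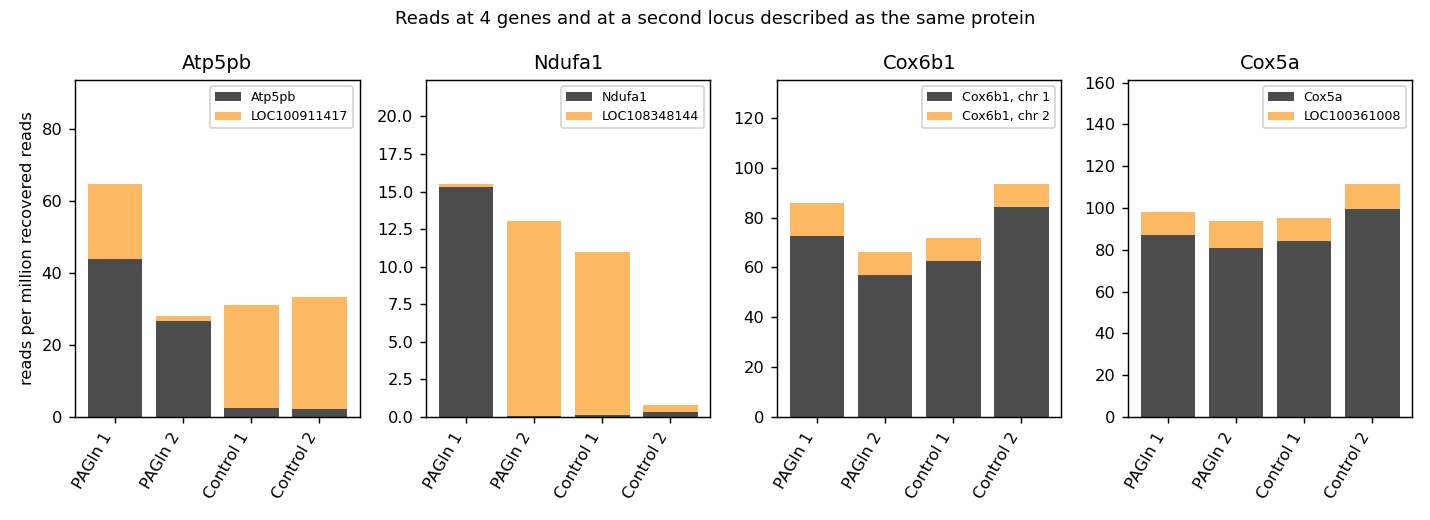
CPM (recovered reads scaled to the library total, each panel with its own axis) at Atp5pb, Ndufa1, Cox6b1 and Cox5a (dark) and at a second locus described as the same protein (light), stacked, by library. The dark share differs between the groups for Atp5pb, is high in PAGln 1 alone for Ndufa1, and is the larger part in each library for Cox6b1 and Cox5a.

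Genes that work with the complexes did not pass the threshold either. None of the 3 lists that follow held a gene with an unadjusted limma p under 0.05, against 2.12% of all tested genes. With lists this short, no conclusion is drawn from that. Over all tested genes 49.4% of estimates were below 0. Of assembly factors other than the Ndufaf genes, 24 of 38 estimates were below 0 (63.2%, median log2 fold change -0.038). Fmc1, which helps to assemble the ATP synthase, had 2.10 and 2.30 FPKM in PAGln libraries, against 2.97 and 3.97 FPKM in control libraries, with no overlap between groups. Cmc1, a factor for complex IV, had 13.2 and 14 FPKM with PAGln and 7.75 and 13.6 FPKM in control. Among electron carriers, ubiquinone synthesis enzymes and carriers of ATP and phosphate, 17 of 23 estimates were below 0 (73.9%, median log2 fold change -0.11). Of these 23 genes, 15 were highest in control 2 (65.2%, against 30.1% of all tested genes). Etfb, a subunit of the electron transfer flavoprotein, had 26.6 and 17.7 FPKM with PAGln and 25.3 and 32.0 FPKM in control, and Coq10a, a coenzyme Q binding protein, had 23.0 and 20.8 FPKM with PAGln and 25.8 and 23.9 FPKM in control. Among transcriptional regulators of respiratory genes, 3 of 12 estimates were below 0 (25%, median log2 fold change 0.071), so their median had the other sign. Tfb2m, a transcription factor of the mitochondrial genome, had 6.82 and 6.94 FPKM with PAGln and 6.20 and 5.16 FPKM in control, and Esrra, a nuclear receptor that acts on respiratory genes, had 33.5 and 29.5 FPKM with PAGln and 31.7 and 44.0 FPKM in control. Esrra, like most of the oxidative phosphorylation genes, was highest in control 2. Of the 15 regulators listed, Ppargc1a (mean 0.070 FPKM) and Esrrb and Esrrg (no read) were not tested. Nrf1, Gabpa and Yy1, whose motifs were searched, had means of 7.26, 12.8 and 36.9 FPKM.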

How the data were processed

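RNA was sequenced from H9C2 cells, and the 2 PAGln and 2 control libraries were grouped by treatment label and numbered as in the titles. The labels state different numbers of repeats. Each library has a deposited table of FPKM per gene that the authors computed. Bowtie 0.12.2 and hg38 are named, per the submitters' processing notes. hg38 is human, but the tables list rat genes. The build of the coordinates, the counter, and how it treated strand and reads with several matches were not given in the sources used here. FPKM times gene length came out as whole multiples of 1 step in each library (100% of values above 0, tolerance 0.01), and 1 step was taken as 1 read.

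limma 3.58.1 (R 4.3.3, eBayes with a trend) was fitted on log2(FPKM + 1) to the 12334 genes whose mean reached 1 FPKM. Tests were two-sided without covariates, and p-values were adjusted over all these genes. Fold changes on this scale are understated for low genes. The code was checked on simulated data.

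Members and lists were chosen with earlier results of these data known, and lists are described by counts and medians. Of related genes, 39 of 43 assembly factors and all names of the 3 other lists matched. The rule for named genes took the 2 most abundant genes of each complex, the 5 with the smallest p in each direction, isoform families, catalytic subunits, rows under the filter and genes with a second locus. In each related list of nuclear genes the 2 genes with the smallest p were named. The printed promoters, COX1, CYTB, ND5 and other genes given with values were chosen after values were seen. 1 tested gene is counted but not reported by itself here. Promoters and synonyms came from RefSeq tables of GRCr8.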

Additional observations from a re-analysis of the deposited data

How the results depend on the processing

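Alternatives were pseudocounts of 0.1 and 5, filters at 0.1 and 5 FPKM or none, quantile normalization, centring on the median, limma's voom on recovered reads, the replicate number as a block, leaving out each library, and leaving out the Ndufaf genes. A block with crossed numbers, a length correction and leaving out genes with second loci were added after seeing the data. Apart from the replicate block and leaving out a library, no alternative called a member, the median stayed within -0.084 to -0.050 and 25 to 35 members were above 0. Same-numbered libraries did not deviate together (correlation of deviations -0.28). With 2 libraries a group, crossed numbers give the same value with the other sign (0.28). Any pattern shared by many genes sets that sign, so the value cannot tell whether the libraries were paired. With the replicate block 1 member was called (Atp5pb, limma adjusted p = 0.0151) and 7 genes in all, and with the crossed block 0 and 0. At an unadjusted p under 0.05 the crossed block gave 16 of 88 members (18.2%) and 899 of 12334 genes (7.29%), against 1 member and 262 genes without a block. This block joins PAGln 1 with control 2 and PAGln 2 with control 1, the order of libraries already seen in the members. It therefore takes up much of their spread by its choice, and no conclusion about PAGln is drawn from the larger share. Leaving out a library gave 0 to 2 called members (2 without PAGln 2, where 13 of 12334 genes were called, and 0 without PAGln 1, control 1 or control 2, where 5, 2 and 1 genes were), 11 to 63 members above 0 and medians of -0.20 to 0.057, with the cause not tested. Of 23 members followed, 11 turned sign when a library was left out, with log2 fold changes of Atp5f1b from -0.12 to 0.096, Atp5md from -0.0099 to 0.061, Cox4i1 from -0.29 to 0.13, Cox6b1 (chromosome 1) from -0.38 to 0.036, Cox8a from -0.74 to 0.0019, Ndufa1 from -0.60 to 5.15, Ndufb4 from -0.21 to 0.038, Ndufb8 from -0.47 to 0.086, Ndufv3 from -0.21 to 0.018, Sdhb from -0.096 to 0.19 and Uqcrc2 from -0.054 to 0.084. The log2 fold change of Atp5f1b was 0.038 with quantile normalization and 0.0025 with the length correction. The cause was not tested. Depth limits the rows under the filter, of which the highest had 3 reads in a library, and also Cox7b2, with 4 to 8 reads.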

Other observations

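An unannotated locus on chromosome 20, from 19481408 to 19485846 in the tables' coordinates, is described there by its match to NADH-ubiquinone oxidoreductase chain 4, a complex I subunit that mitochondrial DNA encodes. It lies outside the rule for the genes described above and was chosen after its values were seen. It had 29.3 and 30.0 FPKM in PAGln libraries, against 592 and 239 FPKM in control libraries. Both PAGln libraries were far below both control libraries, which themselves differed widely. On the log2 scale PAGln minus control came to -3.62 with an SE of 0.42, and the limma adjusted p was 0.459. The mitochondrial gene ND4 itself had 297 and 416 FPKM in PAGln libraries, against 239 and 252 FPKM in control libraries, a log2 fold change of 0.51 (SE 0.18), with both PAGln libraries above both controls. In reads, the chromosome 20 locus had 453 and 467 in PAGln libraries, against 10058 and 4106 in control libraries, and ND4 had 5543 and 7823, against 4914 and 5241. Whether reads were exchanged between the loci was not tested.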
